A study of Mus musculus with 12 samples.

Results

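Adipose tissue of untreated mice labelled Bbs2-/- was compared with that of mice labelled wild type (WT), gene by gene across every expressed gene. The 8 libraries of the comparison, 4 labelled WT and 4 labelled Bbs2-/-, were taken by their genotype and treatment labels from a series of 12. The remaining 4 libraries came from Bbs2-/- mice fed Genz-667161, an inhibitor of glucosylceramide synthase, mixed into the feed at 0.033% for the ages of 2 to 6 months. They enter here only where their values are named. Neither of the compared groups received a drug. All mice had a mixed C57BL/6 x 129/SvJ background, and the labels give 6 months as the age at tissue collection. The fat depot and the nature of the Bbs2 allele are not in the labels. They number the samples without saying that each came from a separate animal. The p-values therefore reflect only how these samples scatter, and some of that scatter may be technical.

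The protein made from Bbs2 is part of the BBSome, a coat-like complex that carries membrane receptors out of the primary cilium. Loss of BBSome function causes Bardet-Biedl syndrome, in which people and mice become obese. Adipose tissue is a mixture: adipocytes store triglyceride and secrete hormones, while macrophages, lymphocytes, fibroblasts, vessels and preadipocytes lie between them. In obese fat, macrophages are known to gather around dying adipocytes and to take up their lipid in lysosomes. In libraries made from whole tissue, fewer cells of a type and less RNA per cell cannot be told apart.

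The 12 libraries held 16317865 to 20224200 estimated counts. Bbs2 (ENSMUSG00000031755.6, chromosome 8, 94067954 to 94098928, mm10), the gene named by the label, was at 12.1, 12.5, 12.7 and 12.7 counts per 1e6 (CPM) in libraries WT 1 to 4 and at 69.5, 53.9, 53.7 and 70.6 CPM in those labelled Bbs2-/- 1 to 4. The gene's RNA was thus higher where the label says that it is lost, and all directions given here compare libraries by their labels. A count over the whole gene does not show which part of a transcript was read, so it does not tell whether functional transcript was made. Adipocyte RNA was present in every library, with 19798 counts or more of Adipoq, the gene of adiponectin. Its level differed between the groups, at 2909 to 4895 CPM in WT and 978 to 1048 CPM in untreated Bbs2-/-. Libraries WT 1 and WT 4 also held RNA of ciliated epithelium: Foxj1, a transcription factor of that tissue, had 48 and 164 counts there and at most 2 in the other 6. WT 1 held 19876 counts of Crisp1, an epididymal secretory protein, against at most 5 in the others. The first principal component of log2 CPM took 54.3% of the variance and separated the groups, with the WT libraries between -79 and -23 and those labelled Bbs2-/- between 50.9 and 62.1. WT 1 lay nearest to the other group on it and stood apart on the second component, with 13.4% of the variance.

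Of 15968 genes tested, 6263 (39.2%) differed between the groups at an adjusted p under 0.05 in edgeR's quasi-likelihood test with Benjamini-Hochberg adjustment. In libraries labelled Bbs2-/- 3124 genes (19.6%) were higher and 3139 (19.7%) lower. At least 2-fold changes made up 2590 of the calls (16.2% of genes tested), of which 1487 (9.31%) were higher and 1103 (6.91%) lower. The 4 values of one group all lay outside those of the other for 5855 genes (36.7%), and 5205 of these were among the calls. When libraries were scaled by their totals alone, 69.0% of calls were higher, against 49.9% here, and the median over all genes tested was 0.164. Among called genes the median log2 fold change was 0.94 for those that rose and -0.77 for those that fell, and over all genes tested it was -0.019. Beyond 16-fold 50 genes were higher and 51 lower, and the groups did not overlap for 49 of the former but for 23 of the latter; between 4-fold and 8-fold 369 genes rose and 180 fell. WT 1 and WT 4 held RNA of ciliated epithelium, and its part in the lower genes was not tested. For comparison, treated Bbs2-/- against the same WT libraries gave 41 calls (0.257%).

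**Figure D1:**
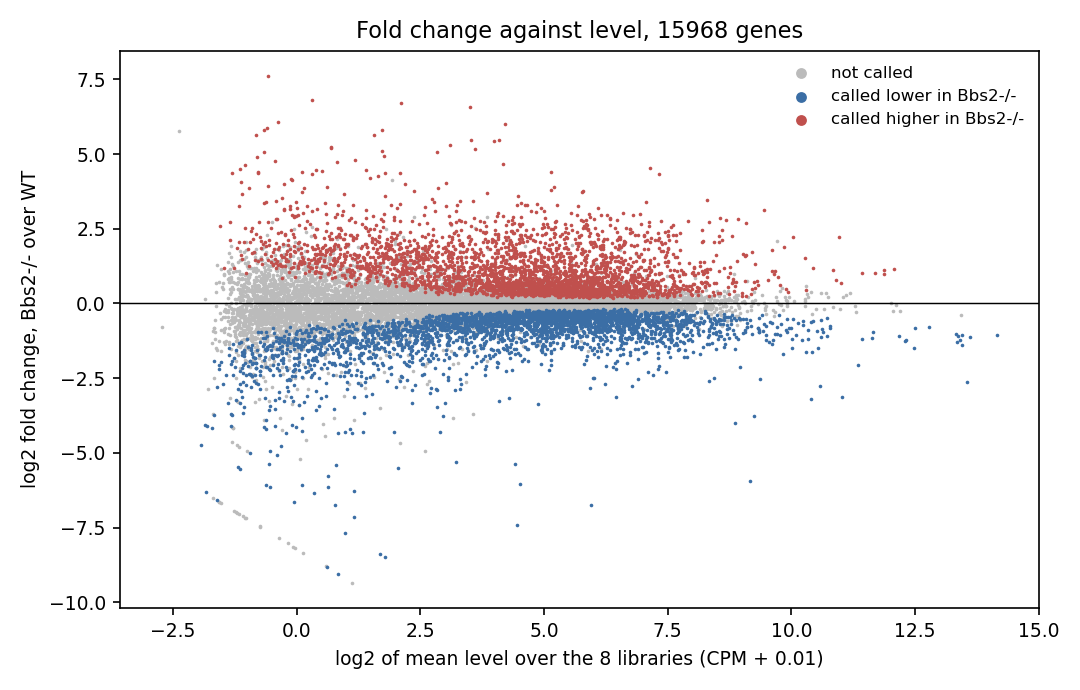
Log2 fold change of libraries labelled Bbs2-/- over those labelled WT against the log2 mean level over the 8 libraries, 1 point per gene, coloured by whether the gene passed the adjusted threshold. Called genes lie on both sides of 0 at every level, 3124 above and 3139 below.

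The classes of genes did not share one pattern. Of 14190 protein-coding genes 21% rose and 19.6% fell. Long non-coding RNAs mostly fell where they changed: of 1072 tested, 77 rose (7.18%) and 266 fell (24.8%), with a median log2 fold change of -0.43 over all of them. Gene segments of immunoglobulins and T cell receptors, which are joined in lymphocytes to make antigen receptors, moved the other way: 26 of 32 rose and 0 fell, with a median of 4.06. Ranked by level over the 8 libraries, the most abundant 20% of genes (60.0 CPM or more) had 22.3% higher and 27.3% lower, and the least abundant 20% (at most 2.16 CPM) had 11.3% higher and 15.2% lower.

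The libraries labelled WT were filled by fewer genes. The 10 most abundant genes held 12.5, 18.2, 17 and 14.1% of the CPM of tested genes in WT 1 to 4 and 8.72, 7.2, 8.41 and 8.05% in Bbs2-/- 1 to 4, with no overlap. It took the top 313 to 602 genes to fill 50% of a WT library and 721 to 807 to fill the same share of a library labelled Bbs2-/-. Genes called lower held 47.5 ± 4.66% of all counts in WT and 27.2 ± 1.34% in libraries labelled Bbs2-/- (SD, n = 4), and genes called higher held 12.5 ± 2.33% and 27.8 ± 1.15%. Among called nuclear protein-coding genes, Car3, a carbonic anhydrase of adipocytes and slow muscle fibres, lost the most CPM. It stood at 16405, 22282, 23898 and 20675 CPM in WT 1 to 4 and at 4545, 2447, 3222 and 3156 CPM in Bbs2-/- 1 to 4, a log2 fold change of -2.64 (SE 0.25, edgeR adjusted p = 5.25e-05). Next among the losses in CPM of such genes came Fabp4, a fatty acid carrier of adipocytes, and Scd1, the desaturase that makes oleic acid. The groups overlapped for Scd1. Among the other genes whose 8 single values or their ranges are given in CPM, they overlapped only for Acsl4. Gsn, an actin-severing protein, went from 8468 ± 837 to 2993 ± 695 CPM (log2 fold change -1.50, edgeR adjusted p = 0.000383). The imprinted membrane protein gene Nnat went from 2682 ± 755 to 397 ± 103 CPM (-2.76, edgeR adjusted p = 9.23e-05).

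**Figure D2:**
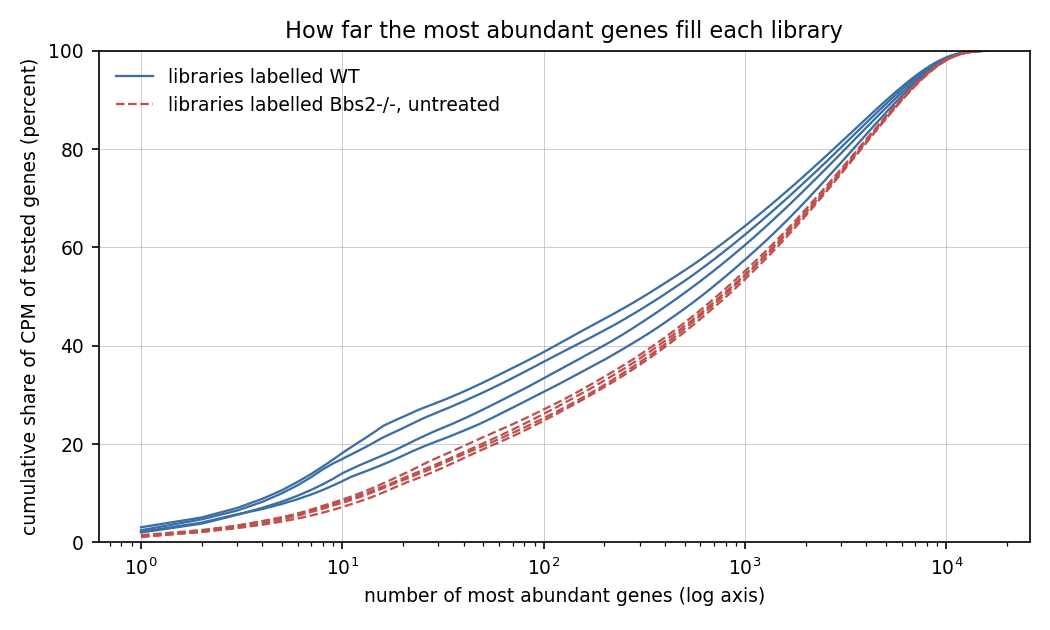
Cumulative share of CPM, in percent of the tested genes' total, against the number of most abundant genes counted (log axis), 1 line per library. The 4 solid WT lines rise earlier than the 4 dashed Bbs2-/- lines, and the top 10 genes hold 12.5 to 18.2% against 7.2 to 8.72%.

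The called nuclear protein-coding gene that gained most CPM was Hp, the hemoglobin-binding acute-phase protein haptoglobin. It was at 2014, 2693, 2577 and 3542 CPM in WT 1 to 4 and at 5332, 5408, 6033 and 7113 CPM in Bbs2-/- 1 to 4 (log2 fold change 1.14, SE 0.27, edgeR adjusted p = 0.00559). Psap, the precursor of the saposins that help lysosomal enzymes reach sphingolipids, went from 2368 ± 720 to 5145 ± 534 CPM. Further gains were those of Lyz2, the lysozyme of macrophages (2.23), of the lysosomal proteases Ctsb (0.97) and Ctsd (1.02), and of the iron store Ftl1 (1.03), each a log2 fold change. Selenop, the selenium carrier of plasma (1.13), Cd74, the invariant chain of MHC class II (1.51), and Mmp12, the macrophage elastase (3.14), complete the first 10 together with the complement component gene C3. C3 was at 315, 416, 285 and 446 CPM in WT 1 to 4 and at 1486, 2202, 1836 and 1394 CPM in Bbs2-/- 1 to 4, so that the lowest Bbs2-/- library was above the highest WT library.

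**Figure D3:**
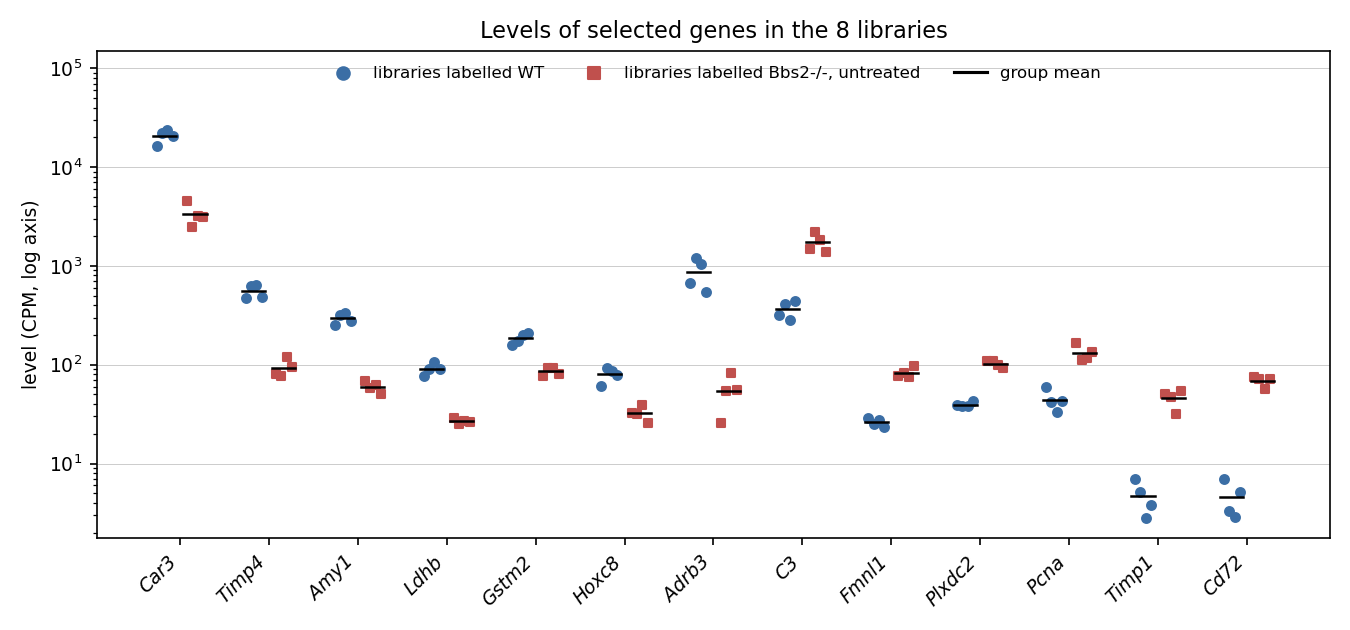
Levels in CPM (log axis) of 13 genes in the 4 libraries labelled WT (circles) and the 4 labelled Bbs2-/- (squares), with group means as bars. The groups do not overlap for any of the 13 genes, and Car3 and Timp4 fall while C3 and Timp1 rise.

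The largest fold changes are described for called protein-coding genes with a mean of at least 1 on the log2 CPM scale and no overlap between groups; genes outside these limits reached larger values. Among the 12 highest of these were Gpr50, an orphan receptor of the melatonin receptor family (5.99), Myh15, a myosin heavy chain (5.44), Jchain, which joins immunoglobulin units (4.39), Fat3, an atypical cadherin (4.03), and Htr2b, a serotonin receptor (3.77). Gpr50 was below 1 CPM in each WT library and at 26.7, 30.5, 33.1 and 54.8 CPM in Bbs2-/- 1 to 4. Zranb3, an enzyme that remodels stalled replication forks, was at 15.1, 5.88, 2.52 and 6.1 CPM in WT 1 to 4 and at 136, 116, 79.8 and 79.6 CPM in Bbs2-/- 1 to 4 (log2 fold change 3.78, edgeR adjusted p = 0.000248). Cd72, an inhibitory receptor of B cells and macrophages, went from 4.56 ± 1.88 to 68.9 ± 8.28 CPM (3.90, edgeR adjusted p = 2.13e-05). Others of this set, such as Vxn (5.08), Nfasc (4.0), Il13ra2 (3.85) and Lair1 (3.80), were at most 8.77 CPM in any WT library. Serpinb9b (4.67) rested most on 1 library, with 105 CPM in Bbs2-/- 1 and 5.05 to 14.6 CPM in the other 3; without that library its log2 fold change was 3.07. WT 1 held the highest WT level of several of these genes, and without it Myh15 was at 6.50, Fat3 at 5.47, Nfasc at 4.65, Htr2b at 4.64 and Zranb3 at 4.40, while Vxn was at 5.91 without WT 4. Other alternatives gave smaller values. On the deposited log2 FPKM values Gpr50 was at 3.44, Myh15 at 2.43, Vxn at 2.2 and Htr2b at 2.11. Without both WT 2 and WT 3, Myh15 was at 4.66 and Fat3 at 3.27. In that setting the calls of Gpr50 (5.8, edgeR adjusted p = 0.0704) and Il13ra2 (3.49, edgeR adjusted p = 0.0609) ended.

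Lowest under the same limits was Cyp2e1, a cytochrome P450 that oxidises small molecules. It was at 732, 1189, 1356 and 1267 CPM in WT 1 to 4 and at 30.6, 20.6, 7.79 and 15.3 CPM in Bbs2-/- 1 to 4 (log2 fold change -5.94, SE 0.63). Adrb3, the adrenergic receptor that starts lipolysis in mouse adipocytes, was at 664, 1214, 1056 and 543 CPM in WT 1 to 4 and at 25.6, 54.5, 83.4 and 55.5 CPM in Bbs2-/- 1 to 4 (-3.99, SE 0.47). Retn, which encodes the adipocyte hormone resistin, went from 1137 ± 236 to 83.9 ± 15.8 CPM (-3.76, SE 0.29). The edgeR adjusted p was 0.000105, 0.000165 and 2.05e-05 for these 3 genes, and the groups lay far apart for each. Lower still in level but equally far apart were Rnase2a, a secreted ribonuclease (-5.31), Acsm3, a medium-chain acyl-CoA synthetase (-4.29), and Eci3, an enoyl-CoA isomerase (-3.34). Cnn1, the smooth muscle protein calponin, is a special case: it was at 149 CPM in WT 1 and 2.57 to 7.63 CPM in WT 2 to 4, and its log2 fold change went from -5.36 to -2.52 without WT 1 (edgeR adjusted p = 0.00154).

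A few genes passed from near absence to presence or the reverse. With at most 3 counts in every WT library and at least 10 in every library labelled Bbs2-/-, 22 genes appeared, 13 of them protein-coding the rest mostly immunoglobulin genes. Examples, chosen after their values were seen, are Sele and Themis. Sele is the selectin by which activated vessels catch leukocytes, with 0 or 1 counts in WT and 16, 22, 18 and 33 in Bbs2-/- 1 to 4. Themis, a signalling protein of developing T cells, had 0 to 3 counts in WT and 34 to 50 counts in Bbs2-/-. The opposite rule found 5 genes: Kcnmb1, a potassium channel subunit of smooth muscle, Aifm3, Accsl, Sypl2 and Tmprss5. Kcnmb1 had 48, 10, 25 and 43 counts in WT 1 to 4 and at most 3 in Bbs2-/-.

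For the counts below, 102 gene groups were written by hand. Of the called genes 4743 (75.7%) are in none of them, near the 78.7% of all tested genes that are in none. Among the unlisted genes with the smallest p that rose was Rin2, an activator of the endosomal GTPase Rab5. It was at 76.6, 67.9, 75.6 and 77.4 CPM in WT 1 to 4 and at 167, 165, 152 and 175 CPM in Bbs2-/- 1 to 4 (log2 fold change 1.15, SE 0.08, edgeR adjusted p = 1.49e-05). Fyn, a kinase of the Src family, was at 33.6, 33.0, 34.6 and 33.8 CPM in WT and at 59.6, 64.5, 57.9 and 62.0 CPM in Bbs2-/- (0.85, SE 0.07). These are modest changes with little spread, and the groups lie far apart. Itsn1, a scaffold of endocytosis, rose by 1.11, Arrb2, an arrestin that silences and redirects receptors, by 1.53, and St3gal1, which caps glycans with sialic acid, by 0.98. Lmo2, a cofactor of hematopoietic transcription, rose by 1.81 and Pou2f2, a factor of B cells and macrophages, by 3.59, from 3.4 ± 0.749 to 40.9 ± 10.1 CPM. Galnt12, which starts mucin-type glycans, rose by 2.95.

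Among the unlisted genes with the smallest p that fell was Amy1, which encodes an amylase. It was at 253, 318, 332 and 280 CPM in WT 1 to 4 and at 68.0, 58.8, 62.5 and 51.0 CPM in Bbs2-/- 1 to 4 (log2 fold change -2.30, SE 0.16, edgeR adjusted p = 1.49e-05); close copies of this gene exist, so its reads may be shared. Ldhb, the lactate dehydrogenase subunit that favours lactate use, was at 76.0, 89.9, 107 and 90.2 CPM in WT and at 28.9, 25.2, 27.2 and 26.6 CPM in Bbs2-/- (-1.75, SE 0.12). Prkag3, a regulatory subunit of the energy sensor AMPK, fell by 2.12, Prodh, which opens proline breakdown, by 1.64, and Gpld1, which cuts lipid-anchored proteins from the membrane, by 1.68. Receptor and membrane genes in this set were Sctr, the secretin receptor, which fell by 2.35, and Popdc2, a cyclic AMP-binding membrane protein, which fell by 2.82. Jade3, a scaffold of histone acetyltransferases, was within 7.74 to 7.95 CPM in all 4 libraries labelled Bbs2-/- and within 22.2 to 25.5 CPM in WT.

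Genes of mitochondrial energy metabolism fell nearly throughout. Of 20 enzymes that break down branched-chain amino acids, 0 rose and 19 fell, with a median log2 fold change of -1.02. Aldh6a1, an enzyme of the valine pathway, was at 432, 540, 519 and 436 CPM in WT 1 to 4 and at 216, 158, 217 and 171 CPM in Bbs2-/- 1 to 4 (-1.34, SE 0.18, edgeR adjusted p = 0.000252). Bckdha and Dbt, subunits of the dehydrogenase complex that commits these amino acids to breakdown, each fell by 1.11, and Acadsb fell by 1.01. In the tricarboxylic acid cycle 15 of 17 fell and 0 rose (median -0.56). Ogdh, part of the 2-oxoglutarate dehydrogenase, went from 362 ± 21.9 to 243 ± 22.4 CPM. In respiratory complex I 33 of 35 nuclear-encoded subunits fell, in complex III 9 of 9, in complex IV 9 of 12 and in the ATP synthase 11 of 16. The medians were -0.59, -0.63, -0.67 and -0.48. The one member of these respiratory groups that rose was Atpif1, the inhibitor that keeps the ATP synthase from running backward (0.80, edgeR adjusted p = 0.000771).

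**Figure D4:**
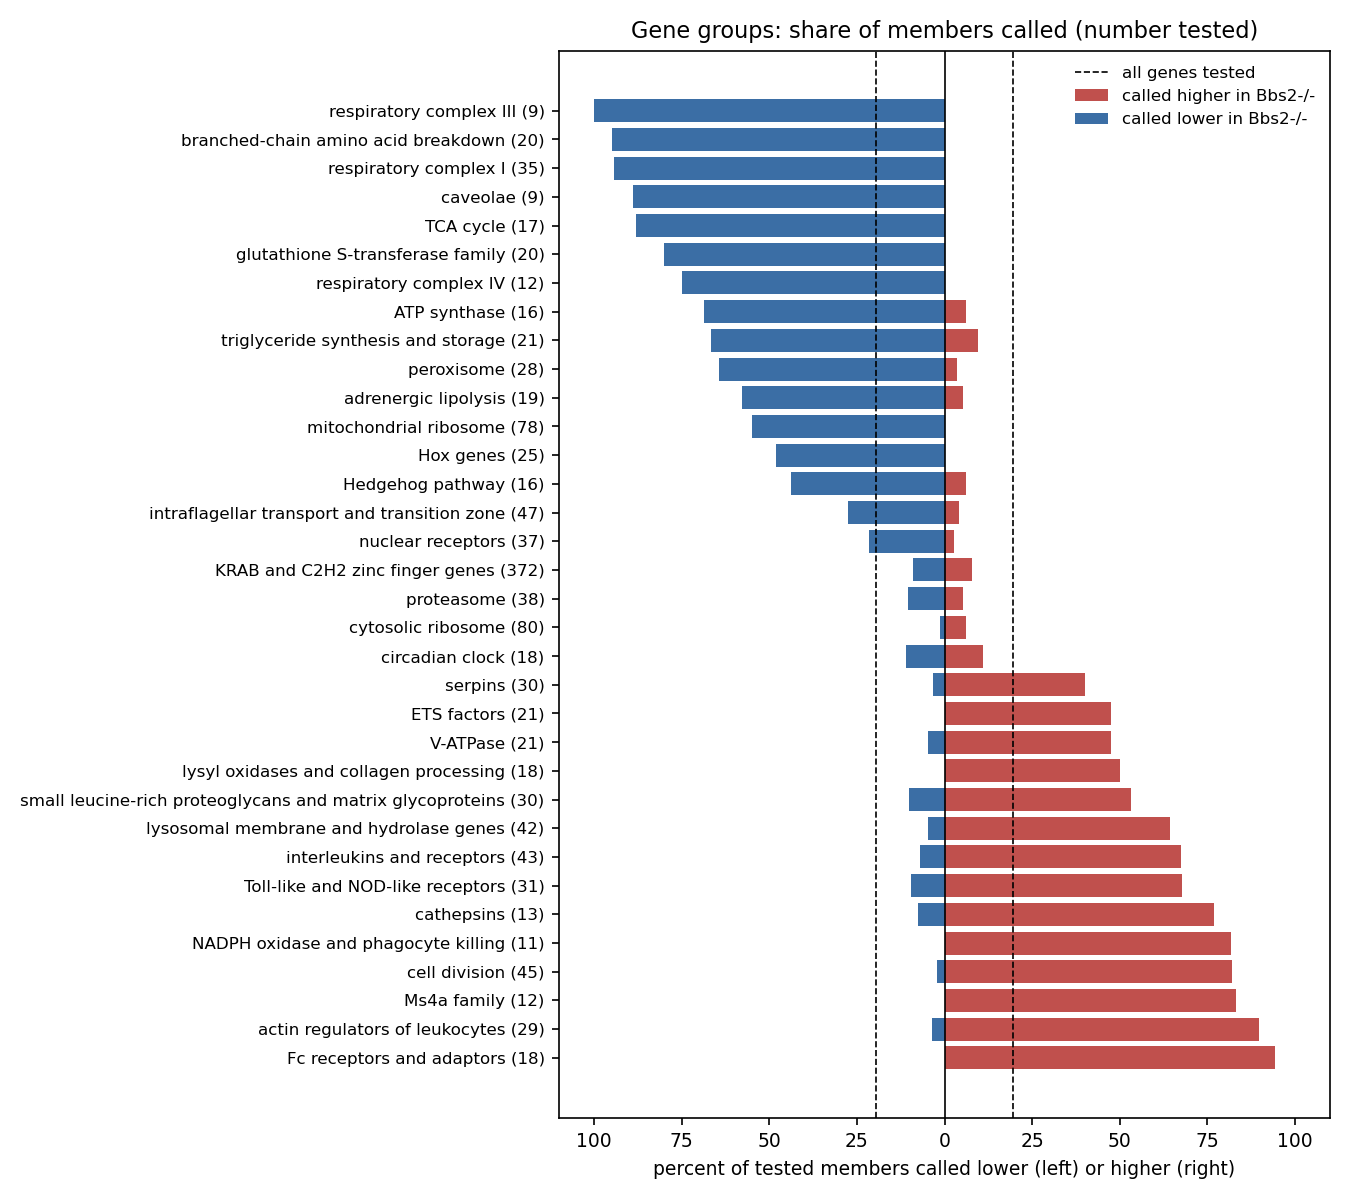
Percent of tested members called higher (right) or lower (left) in libraries labelled Bbs2-/- for 34 gene groups, with the number tested in brackets and dashed lines at the shares over all genes tested (19.6 and 19.7%). The longest bars on the left are those of respiratory complex III (100%) and branched-chain amino acid breakdown (95%), and the longest on the right those of the Fc receptors (94.4%) and actin regulators (89.7%).

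Of 78 proteins of the mitochondrial ribosome 43 fell and 0 rose (median -0.40), among them Mrps6 (-0.85). Of 80 proteins of the cytosolic ribosome 5 rose and 1 fell (median 0.12), and without WT 1 these were 2 and 3 (median 0.05); with scaling by library size alone 30 rose and 0 fell. Mitochondrial carriers, the transporters of the inner membrane, had 7 higher and 17 lower of 42, among them the phosphate-linked carrier Slc25a23 (-1.48) and the ADP/ATP carrier Slc25a4 (-0.70). Genes encoded in the mitochondrial DNA took 5.19 to 9.39% of counts in WT libraries and 3.35 to 4.46% in libraries labelled Bbs2-/-. Peroxisome genes, which shorten very long fatty acids, had 18 of 28 lower and 1 higher (median -0.48). Ehhadh, which carries out several of those steps, fell by 1.51, and the transporter gene Abcd2 fell by 1.18.

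In lipid storage, 14 of 21 genes of triglyceride synthesis fell and 2 rose (median -0.84). Pck1, which supplies the glycerol backbone, was at 1652, 2980, 3317 and 1753 CPM in WT 1 to 4 and at 284, 189, 277 and 298 CPM in Bbs2-/- 1 to 4 (-3.21, SE 0.47). The glycerol channel gene Aqp7 fell by 1.25 and Fitm2, which helps lipid droplets bud, by 1.08, while Gk, the kinase that reuses glycerol, rose by 1.04. In the adrenergic lipolysis group 11 of 19 fell and 1 rose (median -0.63). Lipe, the hormone-sensitive lipase, fell by 1.49 and Adcy5, an adenylyl cyclase, by 1.02, beside Adrb3, which fell by 3.99. Insulin signalling had 9 lower and 3 higher of 20 (median -0.55), with Slc2a4, the insulin-driven glucose transporter, at -1.64 and Irs1, the receptor's docking protein, at -1.51. Akt1, the kinase downstream, rose by 0.55. Of the 9 genes that shape caveolae, the small membrane pits with which adipocytes are covered, 8 fell and 0 rose (median -0.80). Cav1, their coat protein, was at 3640, 4260, 4976 and 4084 CPM in WT 1 to 4 and at 1985, 2247, 2273 and 2214 CPM in Bbs2-/- 1 to 4.

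Pairs of genes with related functions were compared. In many of them, though not in all, 1 member is typical of adipocytes or muscle. Of 15 pairs with both members tested 5 had both called in opposite directions, 1 had both called in the same direction, 7 had 1 member called and 2 had none. Among glucose transporters Slc2a4 fell by 1.64 and Slc2a1 rose by 0.70 (edgeR adjusted p = 7.6e-05 and 0.0172). The call of Slc2a1 ended without WT 2, at 0.64 (edgeR adjusted p = 0.0507), and with a replicate block, also at 0.64 (edgeR adjusted p = 0.0557). It ended too without both WT 2 and WT 3, at 0.58 (edgeR adjusted p = 0.148). The same held without the libraries with ciliated epithelium RNA, at 0.84 (edgeR adjusted p = 0.054). The hexokinase gene Hk2 fell by 0.52, a call that ended without any one of WT 1, 2 and 3 or Bbs2-/- 2, 3 and 4, at log2 fold changes of -0.41 to -0.55. That call also ended with scaling by library size alone, at -0.35 (edgeR adjusted p = 0.116). It was lost as well without both WT 2 and WT 3 (-0.53) and without the libraries with ciliated epithelium RNA (-0.51). Hk3, the form of blood cells, went from 16.4 ± 13.5 to 101 ± 32.8 CPM (2.61; 3.38 without WT 1). The lipid droplet coat gene Plin1 fell by 1.19 and Plin2, the coat found in most cells, rose by 0.99. Fabp4 fell by 1.11 and Fabp5 rose by 0.66. Pyruvate carboxylase (Pcx) fell by 0.97 and pyruvate kinase (Pkm) rose by 0.72. The pair called in the same direction was Pdk4 and Pdk3, kinases that switch off pyruvate dehydrogenase, which fell by 1.28 and 0.64. The pairs with no member called were Acsl1 (0.08) and Acsl4 (0.12), acyl-CoA synthetases, and Nos2 (-0.40) and Arg1 (0.23), which use arginine. Acsl4 was highest in WT 1, and without that library it was at 0.91 and called (edgeR adjusted p = 0.000147); Arg1, also highest there, was at 1.61 without it and not called (edgeR adjusted p = 0.395). Ldha, the partner of Ldhb, was at -0.21 (SE 0.12, edgeR adjusted p = 0.183), and for Pfkp it was 0.16 (SE 0.10, edgeR adjusted p = 0.209) where Pfkm fell by 0.55. Both passed the threshold when 1 library was left out: Ldha at -0.31 without WT 1 (edgeR adjusted p = 0.0259) and Pfkp at 0.26 without Bbs2-/- 4 (edgeR adjusted p = 0.0445).

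Among detoxifying enzymes the glutathione S-transferases fell while other families were mixed. Of 20 glutathione S-transferases, which attach glutathione to reactive compounds, 16 fell and 0 rose (median -1.28). Gstm2 was at 158, 174, 200 and 209 CPM in WT 1 to 4 and at 76.7, 93.5, 92.8 and 80.5 CPM in Bbs2-/- 1 to 4 (-1.11, SE 0.11). Gsta4, which clears the lipid peroxidation product hydroxynonenal, fell by 2.52. Members of this family resemble each other closely, and reads that fit several may have been shared. Of 43 cytochrome P450 genes 11 fell and 2 rose (median 0.03), and the 2 were Cyp1b1 (1.63) and Cyp4f18 (1.47). The call of Cyp4f18 ended without any one of WT 1, 3 and 4 or Bbs2-/- 2, 3 and 4, at log2 fold changes of 1.23 to 1.51. Aldehyde dehydrogenases had 5 higher and 6 lower of 17 (median 0.14). Antioxidant enzymes split, with 8 of 27 higher and 9 lower. The constitutive enzymes Gpx4, which reduces lipid peroxides (-0.93), Sod1 (-0.91) and Cat (-1.01) fell. Nfe2l2, the factor that induces antioxidant genes, rose by 0.80, and Hmox1, which breaks down heme, rose by 2.13 and was highest in WT 1 among WT libraries and in Bbs2-/- 1 among the others; without WT 1 it was 2.72 higher.

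Secreted signals of adipocytes changed in both directions. Of 14 adipokines 6 fell and 2 rose, among the latter Metrnl (2.01). Cfd, the serine protease adipsin, fell by 3.12, Rbp4, the retinol carrier, by 2.51, and Adipoq by 2.06. Orm3, an acute-phase glycoprotein, was at 7.24, 9.32, 10.4 and 5.47 CPM in WT 1 to 4 and at most 0.247 CPM in any library labelled Bbs2-/- (-5.50, SE 0.41), while Hp rose. In the fibroblast and vascular growth factor group 8 of 28 were lower (28.6%) and 6 higher (21.4%), against 19.7 and 19.6% over all genes. Without the libraries with ciliated epithelium RNA these were 6 and 3. Vegfa, the main inducer of vessels, fell by 1.53 and Vegfb by 1.49, and Fgf7 rose by 1.77. The activin receptor gene Acvr1c, which is found mainly in adipocytes, fell by 2.00, whereas the receptor genes Tgfbr2 and Tgfbr1 of transforming growth factor beta rose by 1.26 and 1.37. Over that whole superfamily 13 rose and 11 fell of 51, near the shares over all genes. Wnt genes did not move as a group either (6 higher, 8 lower of 40), although Sfrp1 and Sfrp5, secreted antagonists of Wnt, parted at 2.47 and -2.08.

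Of genes tied to the cilium, 14 BBSome and chaperonin genes had 2 higher, Bbs2 and Bbs12 (0.70), and 4 lower, among them Ttc8 (-0.88). No BBSome subunit gene other than Bbs2 passed the test as higher; Bbs12 encodes a chaperonin-like assembly factor. Intraflagellar transport and transition zone genes had 2 higher and 13 lower of 47 (median -0.22), among them Tmem216 (-1.54). With scaling by library size alone their median was -0.03. Hedgehog signalling runs through the primary cilium, and 7 of its 16 genes fell and 1 rose (median -0.35). Ptch1, the receptor that the pathway itself induces, was at 52.7, 65.5, 47.0 and 42.1 CPM in WT 1 to 4 and at 15.9, 21.8, 24.5 and 21.7 CPM in Bbs2-/- 1 to 4 (-1.30, SE 0.16, edgeR adjusted p = 0.000185). The transducer gene Smo fell by 0.87, and the co-receptor gene Gas1 rose by 0.55. Without all libraries that held RNA of ciliated epithelium, 10 of the transport genes (median -0.17) and 5 of the Hedgehog genes (median -0.42) were lower, from 2 WT libraries.

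Hox genes, which keep the record of a cell's position in the body, fell where they changed. Of 25 tested 12 fell and 0 rose (median -0.57). Hoxc8 was at 61.1, 93.5, 85.9 and 78.1 CPM in WT 1 to 4 and at 32.4, 31.5, 38.8 and 25.7 CPM in Bbs2-/- 1 to 4 (-1.31, SE 0.19, edgeR adjusted p = 0.000331). Hoxc5 and Hoxa7 fell by 1.26 and 1.48. Without the libraries that held RNA of ciliated epithelium 8 Hox genes were lower, with a median of -0.61. Nuclear receptors had 8 lower (21.6%) and 1 higher (2.7%) of 37, against 19.7 and 19.6% over all genes. The retinoid receptor gene Rxrg was at -1.30, and the gene that rose was Rara, a retinoic acid receptor (0.65). ETS factors moved up: 10 of 21 rose and 0 fell (median 0.48). Spi1, which encodes PU.1, the master factor of myeloid cells, was at 30.3, 11.8, 8.16 and 15.3 CPM in WT 1 to 4 and at 113, 88.5, 72.5 and 101 CPM in Bbs2-/- 1 to 4 (2.51, SE 0.39). Etv5 and Etv1, which respond to growth factors, rose by 1.39 and 1.65.

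Receptors of phagocytes were among the groups in which most members rose. Marker genes of resident macrophages moved with them: 9 of 15 rose and 0 fell, and their summed level was 617 to 1491 CPM in WT and 2890 to 4016 CPM in libraries labelled Bbs2-/-. The part of a changed macrophage content in these groups was not tested. Of 18 Fc receptor and adaptor genes, through which cells sense bound antibody, 17 rose and 0 fell (median 2.25). Fcer1g, their shared signalling chain, rose by 2.83 and the receptor gene Fcgr3 by 2.27. In the Ms4a family of membrane proteins 10 of 12 rose (median 2.04), and among subunits of the phagocyte NADPH oxidase and related killing genes 9 of 11 rose (median 2.23), with Cyba at 1.98 and Rac2 at 2.42. Siglecs and other paired receptors, which hold phagocytes in check or release them, had 20 higher and 2 lower of 31 (median 1.99). Sirpa, the receptor for the signal that spares healthy cells, rose by 2.27 and Lilrb4a by 2.95. The 2 that fell were Cd300lg, which is made by endothelium (-0.86), and Pilrb1 (-1.0). C-type lectins had 12 higher and 3 lower of 29 (median 0.74). Clec12a, a receptor for crystals from dead cells, rose by 3.38, while Cd209d and Cd209e fell by 2.35 and 1.99. The other that fell, named after its values were seen, was Cd209b. WT 1 was the highest WT library for Spi1 and Clec12a, at 30.3 and 46.6 CPM, and without it their log2 fold changes were 2.99 and 3.95.

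Innate sensors and their signals followed. Toll-like and NOD-like receptors with their adaptors had 21 higher and 3 lower of 31 (median 1.30), among them Nlrp3, the core of the best known inflammasome (2.77), and Nlrp10 (1.82). Of 43 interleukins and their receptors 29 rose and 3 fell (median 0.92). Il33, an alarm signal of stromal cells, rose by 1.91 and Il27ra by 1.98, while Il17re and Il17rb, chains of receptors for interleukin 17 proteins, fell by 2.02 and 2.05. Of 29 chemokines 16 rose and 2 fell (median 1.40). Ccl2 and Ccl7, which draw monocytes, rose by 2.57 and 2.66, and Ccl27a, better known from skin, fell by 1.28. Complement had 17 higher and 2 lower of 26 (median 1.83), with the C1q genes C1qa, C1qb and C1qc at 2.80, 2.84 and 2.87. The 2 that fell were Cfd, the adipsin of adipocytes, and C2 (-1.59).

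Lysosomal genes rose with a few exceptions. Of 42 genes of the lysosomal membrane and its hydrolases 27 rose and 2 fell (median 0.57). The genes that fell were Acp5, a phosphatase of osteoclasts and macrophages (-1.13), and the acid sphingomyelinase gene Smpd1 (-0.66). Cathepsins had 10 higher and 1 lower of 13 (median 1.02). The proton pump that acidifies the lysosome had 10 higher and 1 lower of 21, and the lower one, the small subunit gene Atp6v0e2, went from 89.6 ± 18.4 to 22.1 ± 4.43 CPM (-2.02). The factors that switch on lysosomal genes, Mitf, Tfeb and Tfe3, rose by 1.66, 1.19 and 0.78.

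The cytoskeleton of moving cells changed widely. Of 29 actin regulators of leukocytes 26 rose and 1 fell (median 1.1). Fmnl1, a formin that extends actin filaments, was at 28.8, 25.3, 27.8 and 23.6 CPM in WT 1 to 4 and at 76.8, 83.3, 74.6 and 96.1 CPM in Bbs2-/- 1 to 4 (1.65, SE 0.12, edgeR adjusted p = 1.67e-05). Coro1a, the coronin of blood cells, rose by 2.23. Of 14 tubulin genes 5 rose (35.7%) and 1 fell (7.14%). Their median was 0.26, and it ranged from -0.03 to 0.44 under the alternative settings. Among those that rose were Tubb5, Tubb2a and Tubb6, by 1.19, 1.47 and 1.18. Smooth muscle and pericyte genes went down, 9 lower and 1 higher of 16 (median -1.04), with Acta2, the actin of smooth muscle, at -1.80. Their summed level was 3080 CPM in WT 1, 1431 to 1647 CPM in WT 2 to 4 and 799 to 1210 CPM in libraries labelled Bbs2-/-; without WT 1, 11 were lower and the median was -0.71. The part of muscle-bearing tissue in WT 1 in these values was not tested beyond that.

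Surface molecules and matrix showed exchanges within families. Plxdc2, a plexin-domain receptor, was at 39.2, 37.8, 38.5 and 42.5 CPM in WT 1 to 4 and at 108, 108, 99.6 and 93.6 CPM in Bbs2-/- 1 to 4 (1.37, SE 0.08, edgeR adjusted p = 3.33e-06). Cdh11, a cadherin of mesenchymal cells, rose by 2.47. Among inhibitors of matrix proteases Timp1 was at 6.92, 5.2, 2.79 and 3.84 CPM in WT and at 50.6, 47.6, 31.4 and 54.4 CPM in Bbs2-/- (3.29), whereas Timp4 was at 472, 623, 644 and 479 CPM in WT and at 80.7, 77.3, 119 and 94.0 CPM in Bbs2-/- (-2.58). Timp2 rose by 1.19 and Timp3 fell by 0.91. Small leucine-rich proteoglycans and glycoproteins of the matrix had 16 higher and 3 lower of 30 (median 0.58), with Fn1, fibronectin, at 1.89 and Bgn, biglycan, at 1.58. Processing enzymes of collagen had 9 higher and 0 lower of 18, among them Pcolce, which helps trim procollagen (1.44). Collagen genes themselves had 11 higher and 4 lower of 35, with Col8a1 at 2.10 and the basement membrane gene Col4a4 at -2.05. Every one of 8 tested Serpinb genes, intracellular protease inhibitors, rose, a family picked out after its values were seen.

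Cell division genes rose nearly as one: 37 of 45 were higher and 1 lower (median 1.25). Pcna, the clamp of the replication fork, was at 59.0, 42.4, 32.9 and 42.9 CPM in WT 1 to 4 and at 164, 111, 118 and 133 CPM in Bbs2-/- 1 to 4 (1.57, SE 0.17, edgeR adjusted p = 8.82e-05). The helicase subunit genes Mcm3 and Mcm5 rose by 1.24 and 1.42 and Cdt1, which loads the helicase, by 1.54. Inhibitors of the cycle and p53 targets had 9 higher and 6 lower of 28 (median 0.31). Among them Cdkn2b rose by 1.04, while Cdkn1c, an imprinted brake, fell by 1.54.

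Promoters of 3 groups are shown because their members moved together. The sequences run from 250 bases before to 50 after the first start that RefSeq lists (GRCm38.p6) and read 5′ to 3′ on the gene's strand; 11061 of 14190 tested protein-coding genes had one. The CCAAT box (CCAAT, bound by NF-Y) was in 70.3% of 37 promoters of the cell division group and in 38.4% of all, and the cell cycle element TTTGAA in 40.5% and 12.3%. CCAAT was also in 57.1% of 14 promoters of the tricarboxylic acid cycle group, in which 15 of 17 genes fell. It was in 36.2% of 1052 promoters of genes that rose at least 2-fold and in 39.1% of 622 that fell so far. For TTTGAA these shares were 16.7% and 12.7%. Both strands were searched for each motif, and no motif used here contains another. Mcm2, a helicase subunit (log2 fold change 1.23, chr6:88898731-88899030, minus strand), is a called member with both elements, shown in capitals. E2f8, a cell cycle repressor of transcription (2.51, chr7:48881547-48881846, minus strand), is another. Not all such members were considered for display, and others may have a smaller p. Without WT 1 the log2 fold change of E2f8 was 3.16.
Mcm2: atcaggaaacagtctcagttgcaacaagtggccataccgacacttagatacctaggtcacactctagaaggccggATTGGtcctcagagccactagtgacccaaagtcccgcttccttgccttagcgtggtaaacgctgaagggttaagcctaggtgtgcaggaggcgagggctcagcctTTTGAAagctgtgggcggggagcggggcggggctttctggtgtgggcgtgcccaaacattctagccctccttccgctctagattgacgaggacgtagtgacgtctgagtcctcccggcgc
E2f8: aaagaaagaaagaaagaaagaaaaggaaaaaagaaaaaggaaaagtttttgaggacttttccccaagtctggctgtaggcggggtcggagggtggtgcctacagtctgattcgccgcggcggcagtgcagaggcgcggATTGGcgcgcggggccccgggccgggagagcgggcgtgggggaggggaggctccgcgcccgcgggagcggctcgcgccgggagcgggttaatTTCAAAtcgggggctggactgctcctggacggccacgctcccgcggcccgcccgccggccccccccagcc
GGAAGT, the core read by PU.1 and other ETS factors, was in 72.0% of 25 promoters of the paired receptor group and in 50% of 14 of the Fc receptor group, against 28.2% of all 11061. It was also in 42.9% of 14 promoters of the tricarboxylic acid cycle group, in which 15 of 17 genes fell. Over all genes that rose at least 2-fold it was in 32.5% of 1052 promoters, and over those that fell at least 2-fold in 19.8% of 622. Promoters of the paired receptors had a median GC content of 49.0%, against 60.3% over all, and base composition alters how often a motif occurs by itself. Cd300ld (2.25; chr11:114989837-114990136, minus strand) and Pirb (2.30; chr7:3720333-3720632, minus strand), receptors of myeloid cells, are shown with this core in capitals.
Cd300ld: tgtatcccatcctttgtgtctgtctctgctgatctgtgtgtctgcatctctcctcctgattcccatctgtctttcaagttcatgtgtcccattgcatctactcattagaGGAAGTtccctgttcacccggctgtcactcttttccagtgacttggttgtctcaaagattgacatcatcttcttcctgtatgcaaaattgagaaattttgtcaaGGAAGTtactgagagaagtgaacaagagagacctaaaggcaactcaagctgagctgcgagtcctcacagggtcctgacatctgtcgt
Pirb: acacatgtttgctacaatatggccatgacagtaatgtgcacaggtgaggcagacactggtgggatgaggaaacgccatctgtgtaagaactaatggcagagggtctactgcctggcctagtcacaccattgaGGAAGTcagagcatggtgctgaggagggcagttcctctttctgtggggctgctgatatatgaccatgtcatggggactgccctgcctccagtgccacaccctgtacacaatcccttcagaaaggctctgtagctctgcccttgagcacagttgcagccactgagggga
The E-box CACGTG, which Mitf and Tfeb can bind, was in 21.2% of 33 promoters of lysosomal genes and 26.7% of 15 of the proton pump, against 9.83% of all. The element TTTGAA was also in 26.7% of the proton pump promoters, against 12.3% of all. Over all genes that rose at least 2-fold CACGTG was in 7.6% of 1052 promoters, and over those that fell at least 2-fold in 8.36% of 622. Nagpa, which finishes the mannose 6-phosphate tag of lysosomal enzymes (0.56; chr16:5203963-5204262, minus strand), holds it on both sides of its start.
Nagpa: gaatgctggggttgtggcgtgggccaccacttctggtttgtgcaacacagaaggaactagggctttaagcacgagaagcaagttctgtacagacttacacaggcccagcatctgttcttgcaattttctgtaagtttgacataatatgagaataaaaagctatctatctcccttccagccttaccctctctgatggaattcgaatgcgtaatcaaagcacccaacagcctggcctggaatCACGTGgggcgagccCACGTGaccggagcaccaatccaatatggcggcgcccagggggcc
A match is a description of these letters and not a measured site.

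Of 16 B and plasma cell genes 10 rose and 0 fell (median 2.15). Their summed level was 863 to 1191 CPM in WT and 1342 to 1672 CPM in Bbs2-/-, most of it from Ighm, which was named after its values were seen and was at 0.09 (edgeR adjusted p = 0.682). Those that rose were low in WT, with Mzb1, a chaperone of plasma cells, at 4.47 and Pou2af1 at 3.65. Of 26 T and NK cell genes 12 rose and 1 fell (median 1.28), the summed level being 22.8 to 52.8 CPM in WT and 41.1 to 63.8 CPM in Bbs2-/-, which overlap. Mast cell and eosinophil genes had 6 higher and 1 lower of 13, led by Ccr3, the eotaxin receptor (4.19; 5.28 without WT 1), and Mcpt4, a mast cell protease (3.42). The value of Mcpt4 was 2.57 without Bbs2-/- 1 and 4.36 without WT 4. Their summed level was 218 CPM in Bbs2-/- 1 and 83.8 to 103 CPM in Bbs2-/- 2 to 4, against 54.1 to 82.7 CPM in WT. Endothelial genes had 2 higher and 3 lower of 20, with 7 lower without WT 1, and fibroblast and preadipocyte genes had 7 higher and 0 lower of 19.

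Some groups held fewer changes than genes at large. Of 372 zinc finger genes of the KRAB and C2H2 types, 29 rose and 33 fell. The proteasome had 2 higher and 4 lower of 38, aminoacyl-tRNA synthetases 2 and 8 of 34, and translation factors 7 and 9 of 66, though Eif4ebp1, an inhibitor of translation initiation, fell by 1.62. Without WT 1 there were 7 lower of the proteasome and 16 lower of the translation factors, and with scaling by library size alone 9 and 13 were higher and 0 and 5 lower. Clock genes had 2 higher, Nfil3 (1.61) and Bhlhe40 (1.16), and 2 lower, Cry2 (-0.83) and Nr1d1 (-1.52), of 18. Targets and enzymes of glucocorticoid action had 1 higher and 1 lower of 14, the lower being Hsd11b1, which regenerates the hormone (-1.46). Transport and excitability genes were not among these groups and spread both ways. Of 218 solute carriers 59 were higher (27.1%) and 41 lower (18.8%), and of 99 ion channels 20 (20.2%) and 25 (25.3%). Over all genes the shares were 19.6 and 19.7%. Trpc4, a calcium-permeable channel, rose by 4.38, and Kcns3, a silent potassium channel subunit, fell by 2.05 from 57.2 ± 4.94 CPM. Of 129 G protein-coupled receptors 47 rose (36.4%) and 21 fell (16.3%). Among them S1pr2, a sphingosine 1-phosphate receptor, was at 2.30 and Mc2r, the corticotropin receptor of adipocytes, at -1.69.

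The neighbourhood of Bbs2 on chromosome 8 was examined because alleles bred together with a targeted gene can carry differences along. Of 35 tested genes that start within 1 Mb of it 4 rose and 11 fell (42.9% called), near the 39.2% over all genes, and between 1 and 2 Mb 35.0% of 20 were called. Among them the carboxylesterase gene Ces1d, a lipase of fat, fell by 2.52 and its neighbour and close copy Ces1f by 1.45, while Mmp2 and Lpcat2 rose by 1.31 and 1.91. In treated Bbs2-/- libraries 0 of these 55 genes were called against WT, where only 0.257% of all 15968 genes were called. The 0 is thus near the share over all genes. Bbs2 itself was 2.30 higher there (edgeR adjusted p = 1.7e-06). Of all genes tested, 17 differed the same way in treated and in untreated libraries labelled Bbs2-/-, both set against the same 4 WT libraries. Besides Bbs2 they include Jade3 (log2 fold change -1.57 untreated, -1.13 treated), Sctr (-2.35 and -1.22), Pdk4 (-1.28 and -1.71), Net1 (-1.54 and -1.65) and Oxtr, the oxytocin receptor gene (1.33 and 1.47), a choice made after values were seen.

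**Figure D5:**
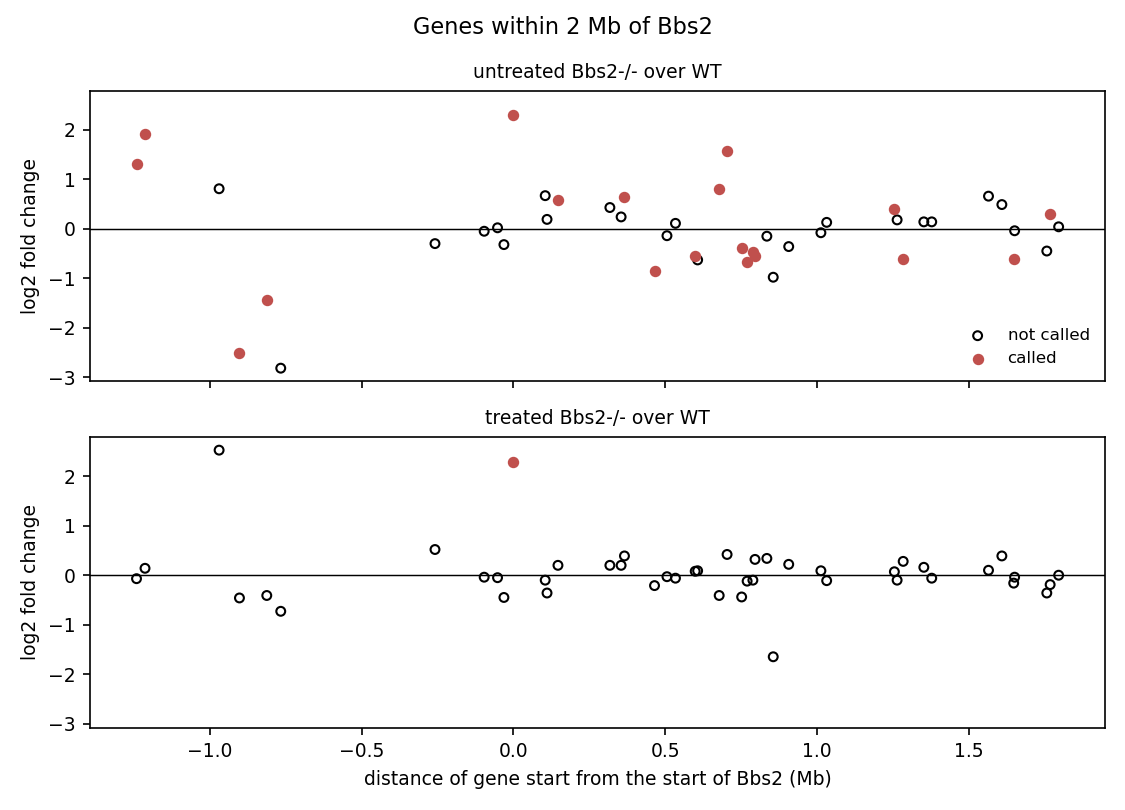
Log2 fold change over WT against the distance of each gene's start from the start of Bbs2, for untreated (top) and treated (bottom) libraries labelled Bbs2-/-, with called genes filled. Of 56 genes tested within 2 Mb the 45 with a mean of at least 2 CPM are drawn, and Bbs2 at 0 is high in both panels.

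The libraries labelled Bbs2-/- resembled each other more than the WT libraries did. The median SD of log2 CPM within the group was 0.185 in Bbs2-/- and 0.273 in WT, and 11321 of 15968 genes had the larger SD in WT. Library WT 1 often stood nearest to the other group, and without it 7212 genes were called, 3679 of them higher and 3533 lower.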

How the data were processed

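RNA from whole adipose tissue was made into stranded mRNA libraries (Illumina TruSeq), per the labels' protocols. The authors estimated read counts per gene, and these expected counts were deposited unscaled. They also deposited log2 FPKM values. The build was mm10, as the submitters' processing notes list it. The sources used here name no aligner, counter or strand setting, so overlapping genes and close copies are uncertain. Groups came from genotype and treatment labels.

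The expected counts were rounded and tested with edgeR 4.0.16 (R 4.3.3; TMM scaling, filterByExpr, robust quasi-likelihood test, Benjamini-Hochberg adjustment over 15968 genes, threshold 0.05). All 12 libraries shared 1 fit, and the contrast was untreated Bbs2-/- minus WT. CPM used TMM-scaled library sizes. Standard errors were the log2 fold change over the root of F. The 16317865 to 20224200 counts per library set the precision. The script was tested on simulated data.

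Named genes were the targeted gene and the 12 highest and 12 lowest log2 fold changes among abundant, non-overlapping called genes. To these came the 10 largest gains and losses in CPM among called nuclear protein-coding genes. Up to 4 called members per list in the main direction and 2 in the other were added, with fixed pairs of genes. The rest were the 12 smallest p in each direction in no list, and called genes within 2 Mb of Bbs2. The members and lists were chosen with earlier results of these data known. Of 53431 identifiers 52207 matched GENCODE M21. Alternatives were DESeq2 1.42.0, limma 3.58.1 on the log2 FPKM values, other scalings and filters, and left-out libraries.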

Additional observations from a re-analysis of the deposited data

Results flagged for a closer look

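In 32 of 426 groups of 4 libraries checked, 1 library lay far from the other 3. The check used CPM of the genes named in the text. Its cutoff gives about 1 in 20 groups by chance only for normally distributed values. CPM need not be so distributed, so the number of flags cannot be set against that rate. WT 1 was the library apart in 13 of them, Bbs2-/- 1 in 7 and Bbs2-/- 4 in 7.

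Smooth muscle genes stood high in WT 1: Acta2 was at 519 CPM against 309 to 335 CPM in the other WT libraries, and Cnn1 at 149 CPM against 2.57 to 7.63 CPM. Genes active in macrophages did so too, with Hk3 at 36.5 CPM (others 7.5 to 11.2), Hmox1 at 113 CPM (33.2 to 43.4) and Arg1 at 14.3 CPM (1.8 to 2.06). Acsl4 was at 95.7 CPM there (22.6 to 25.7). The receptor genes Tgfbr1 at 53.3 CPM (27.3 to 30.9), S1pr2 at 13.6 CPM (7.03 to 7.7) and Htr2b at 1.63 CPM (0.332 to 0.407) were highest in that library, as were Atpif1 at 49.4 CPM (44.2 to 44.3) and Fat3 at 2.61 CPM (0.135 to 0.523). Gpx4 was lowest there, at 670 CPM against 952 to 1010 CPM. Sele was at 0.0545 CPM in WT 1, a single count, and at 0 in the other WT libraries. In WT 3, Aifm3 was highest at 1.99 CPM (1.35 to 1.45) and Lpcat2 lowest at 1.39 CPM (2.5 to 2.67). In WT 4, Cd209b was highest at 21.3 CPM (7.35 to 8.92).

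Among libraries labelled Bbs2-/-, number 1 was highest for Ctsb at 5684 CPM (4599 to 4785), Hk3 at 150 CPM (82.3 to 88.3), Hmox1 at 446 CPM (172 to 191) and Pkm at 823 CPM (481 to 534). It was also highest for the mast cell protease gene Mcpt4 at 42.4 CPM (7.08 to 12.8), for Nfasc at 12.9 CPM (7.06 to 7.44) and for Serpinb9b at 105 CPM (5.05 to 14.6). Number 2 was highest for Acsl4 at 55.0 CPM (42.0 to 43.6). Number 4 was highest for Ighm at 1001 CPM (807 to 832), Gpx4 at 524 CPM (456 to 465), Vegfb at 59.5 CPM (44.3 to 46.9), Tmem216 at 18.6 CPM (10.9 to 11.6), Bbs12 at 6.99 CPM (4.89 to 5.24) and Tmprss5 at 0.142 CPM (0.0988 to 0.103), and lowest for Retn at 60.5 CPM (88.7 to 94.1). Number 3 was highest for Smpd1 at 73.0 CPM (59.9 to 60.7).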

How the results depend on the processing

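Under 24 alternatives no gene was called in the opposite direction. The number of genes called, 6263, ranged from 4951 to 7212 when 1 library was left out, the higher calls from 2567 to 3679 and the lower calls from 2175 to 3533, with the lowest total without Bbs2-/- 2 and the highest without WT 1. Scaling by library size alone left 2005 lower calls against 4460 higher. Testing against a minimum log2 fold change of 1 left 579 calls, 390 higher and 189 lower. Without WT 2 and WT 3, whose library names are of another type, 2 WT libraries remained. There 3417 genes were called, 1724 higher and 1693 lower, with 51.0% of the 6263 calls shared. Without the libraries that held RNA of ciliated epithelium (WT 1, WT 4 and treated 1 and 3), 2 WT libraries also remained. In that setting 6161 genes were called, with 82.9% of the 6263 calls shared. The cause of the difference was not tested. With the replicate number as a block 5307 genes were called, 2781 higher and 2526 lower; same-numbered libraries did not deviate together (correlations -0.02138 to 0.01637), so the numbers are not taken as pairs. DESeq2 called 6921 genes and limma-trend on log2 FPKM 5833. Of 206 called genes named in the text 103 kept their direction and call under every alternative and 103 lost the call under 1 or more, 101 of them against the minimum log2 fold change; 0 reversed. Of 4894 counts of called group members under these alternatives 690 moved by over 1.5 times. Depth limits the least abundant genes, in which a few counts separate the groups.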
